A study of Homo sapiens with 6 samples.

Results

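The 45 genes described here encode proteins of the large subunit of the cytosolic ribosome and were taken by gene symbol from a table of ribosome footprint levels with 20289 genes. All 45 were in the table, and all 45 were among the 11566 genes tested. They are the members listed for the large subunit and not a complete roster of its proteins. Ribosome footprints, the mRNA pieces that translating ribosomes shield from nuclease, had been read in RKO, a line grown from a human colorectal carcinoma. The tested libraries carry shTRMT6, a short hairpin RNA against TRMT6, and the controls carry shControl. There were 3 libraries of each, all from RKO with no other allele or agent named. TRMT6 is the partner subunit of TRMT61A in the enzyme that places the m1A mark on tRNA, and the study asked how its knockdown changes translation. Per the labels the groups are a knockdown derivative and the parent line with a control hairpin, and the labels name no clone, hairpin sequence or separate cultures. The p-values below therefore measure only the spread between these libraries, which may be technical. The table's columns are named NC and SH, and NC was read as shControl and SH as shTRMT6, which no label spells out.

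The large subunit joins amino acids at the peptidyl transferase centre, a site made of ribosomal RNA, while its proteins fold and hold the RNA, line the tunnel through which the new chain leaves, and form the stalks that handle translation factors and tRNA. Its proteins are made in the cytosol in matched amounts, carried to the nucleolus and built into precursors there, and surplus copies are degraded. In vertebrates most mRNAs for these proteins begin with a C and a run of pyrimidines, the terminal oligopyrimidine (TOP) start, through which growth signalling by mTORC1 and LARP1 sets their translation as a group. In cancer cells they are among the most heavily translated genes.

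The starts of the 11 genes on which the description below turns, the 3 that stood higher and the 8 with the clearest decreases, are shown because the TOP start is the element for which these mRNAs are best known. Each line gives 15 bases before and 15 bases from the annotated start, 5′ to 3′ on the gene's own strand, from RefSeq on GRCh38.p14. Capitals mark a start on C with at least 4 further C or T in an unbroken run, the TOP rule used here. A sequence without capitals did not meet that rule at that position.
RPLP0, chr12:120201097-120201126, minus strand: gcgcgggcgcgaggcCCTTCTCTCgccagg
RPL12, chr9:127451392-127451421, minus strand: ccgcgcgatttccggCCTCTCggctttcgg
RPL13A, chr19:49487593-49487622, plus strand: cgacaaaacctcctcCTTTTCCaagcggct
RPL29, chr3:51995881-51995910, minus strand: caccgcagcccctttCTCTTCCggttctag
RPL18, chr19:48619164-48619193, minus strand: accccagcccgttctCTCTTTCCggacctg
RPL24, chr3:101686704-101686733, minus strand: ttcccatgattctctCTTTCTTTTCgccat
RPL17, chr18:49492451-49492480, minus strand: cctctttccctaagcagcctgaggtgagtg
RPL9, chr4:39458908-39458937, minus strand: gtacgtaatgacgacagacgttctttcttt
RPL34, chr4:108620561-108620590, plus strand: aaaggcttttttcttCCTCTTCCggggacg
RPL31, chr2:101002274-101002303, plus strand: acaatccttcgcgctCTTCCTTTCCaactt
RPL21, chr13:27251543-27251572, plus strand: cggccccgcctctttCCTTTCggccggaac

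The rule was met by 28 of the 38 members with a start in the RefSeq table, or 73.7%, and by 7.71% of the 9322 tested genes with one, searched on the gene's own strand only. Of the 26 small subunit genes with an entry 76.9% met it. All 3 genes that stood higher have such a start, and so do RPL29, RPL18, RPL24, RPL34, RPL31 and RPL21 among those that fell. RPL17 and RPL9 lack it at the annotated position. Pyrimidine runs elsewhere in the window did not count. The median log2 fold change was -0.67 over the 28 members that met the rule. It was -0.81 over the 10 that did not meet it at the annotated position, RPL3, RPL4, RPL6, RPL9, RPL10A, RPL15, RPL17, RPL19, RPL27 and RPL32.

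TRMT6 had 20.7, 21.9 and 24.1 FPKM (fragments per kilobase of gene, scaled to library size) in shTRMT6, against 57.6, 58.4 and 95.3 FPKM in shControl. Its groups did not overlap (log2 fold change -1.58, SE 0.27, limma adjusted p = 0.00301), lower in the libraries labelled as its knockdown. The low values fall on steps from which 2480000 to 3899000 reads per shTRMT6 library and 2523000 to 3813000 per shControl library were estimated. Each member then rests on about 539 to 18594 reads in a library, so counting error is small for all of them. Among cell markers, the epithelial genes EPCAM, KRT8 and KRT18 had 12.1 to 31.6, 6.45 to 39.6 and 97.1 to 216 FPKM across libraries. The epithelial gene CDH1 was listed at 0 throughout, and KRT19 at 0 except for 1.52 FPKM in shControl replicate 1. Of the markers of other cell types, VIM had 28.85 to 65.88 FPKM. The leukocyte gene PTPRC was listed at 0 throughout, and COL1A1 and PECAM1 reached at most 0.7 and 0.54 FPKM. shControl replicate 3 stood apart from the other control libraries among the members. Over their log2 values it correlated with shControl replicates 1 and 2 at r = 0.861 and 0.857, while those correlated with each other at 0.991 and the shTRMT6 libraries at 0.961 to 0.984 (45 genes of the same libraries, a description). Where leaving out shControl replicate 3 changes a member's call, both values are given.

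Footprints on the large subunit genes were lower in shTRMT6 cells for most members. Footprints alone were used, so the amount of mRNA and its translation cannot be told apart. Of the 45, 26 fell and 1, RPLP0, rose at a limma adjusted p under 0.05, while 18 did not pass. Over all tested genes the shares called were 9.04% lower and 26.5% higher, so the members' direction was opposite to that of the table as a whole. The median log2 fold change was -0.72 over the members and 0.39 over all 11566 genes, on the log2(FPKM + 1) scale. The log2 fold change was negative for 41 of the 45 members, against 33.4% of the genes tested. All 3 shTRMT6 libraries lay below all 3 shControl libraries for 28 members, against 14.3% of genes. They lay above for 3 members, RPLP0, RPL12 and RPL13A, against 37.0% of genes. The groups overlapped for the other 14. Without shControl replicate 3 the counts were 34 lower and 4 higher (RPL4, RPL12, RPL13A and RPLP0), against 12.3% and 28.3% of genes.

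The count of calls depended on which library was left out and on the scaling. It was 8, 16 and 13 lower without shTRMT6 replicate 1, 2 and 3 (background 5.08%, 6.29% and 5.18%), and 15 and 19 lower without shControl replicate 1 and 2 (background 5.91% and 8.01%). In these fits RPLP0 was called higher only without shControl replicate 2, and the backgrounds for higher calls were 16.9%, 18.0%, 15.8%, 19.3% and 27.1%. With quantile normalization 7 of the 45 members were lower and 3 higher, against 14.7% and 13.9% of genes. The share lower was then near that of the table. With the trends by level and coding length removed 10 of the 45 were lower and 6 higher, against 13.7% and 13.5%. Of those 10, 8 were among the 26, and RPL39 and RPL41 were newly called lower. The 6 higher were RPLP0 with RPL12, RPL13A, RPL27A, RPL35 and RPLP1. With each library scaled to the same median 36 were lower and 0 higher, against 19.7% and 13.2%. In those 3 fits the median of all genes lay at -0.04, -0.06 and -0.07 in place of 0.39, and the members' median differed from it by -0.20, -0.13 and -1.15, against -1.11 for the values as deposited. RPL17, RPL18, RPL24, RPL29 and RPL34 were lower and past the threshold in all 17 settings run. RPL9, RPL21 and RPL31 were so in each fit that left out 1 library. Every other member called lower missed the threshold in at least 1 such fit. RPL10A, RPL11, RPL13 and RPL36A kept it only in the fit without shControl replicate 3. RPLP0, RPL12 and RPL13A had positive log2 fold changes and 29 members negative ones in all 17.

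**Figure D1:**
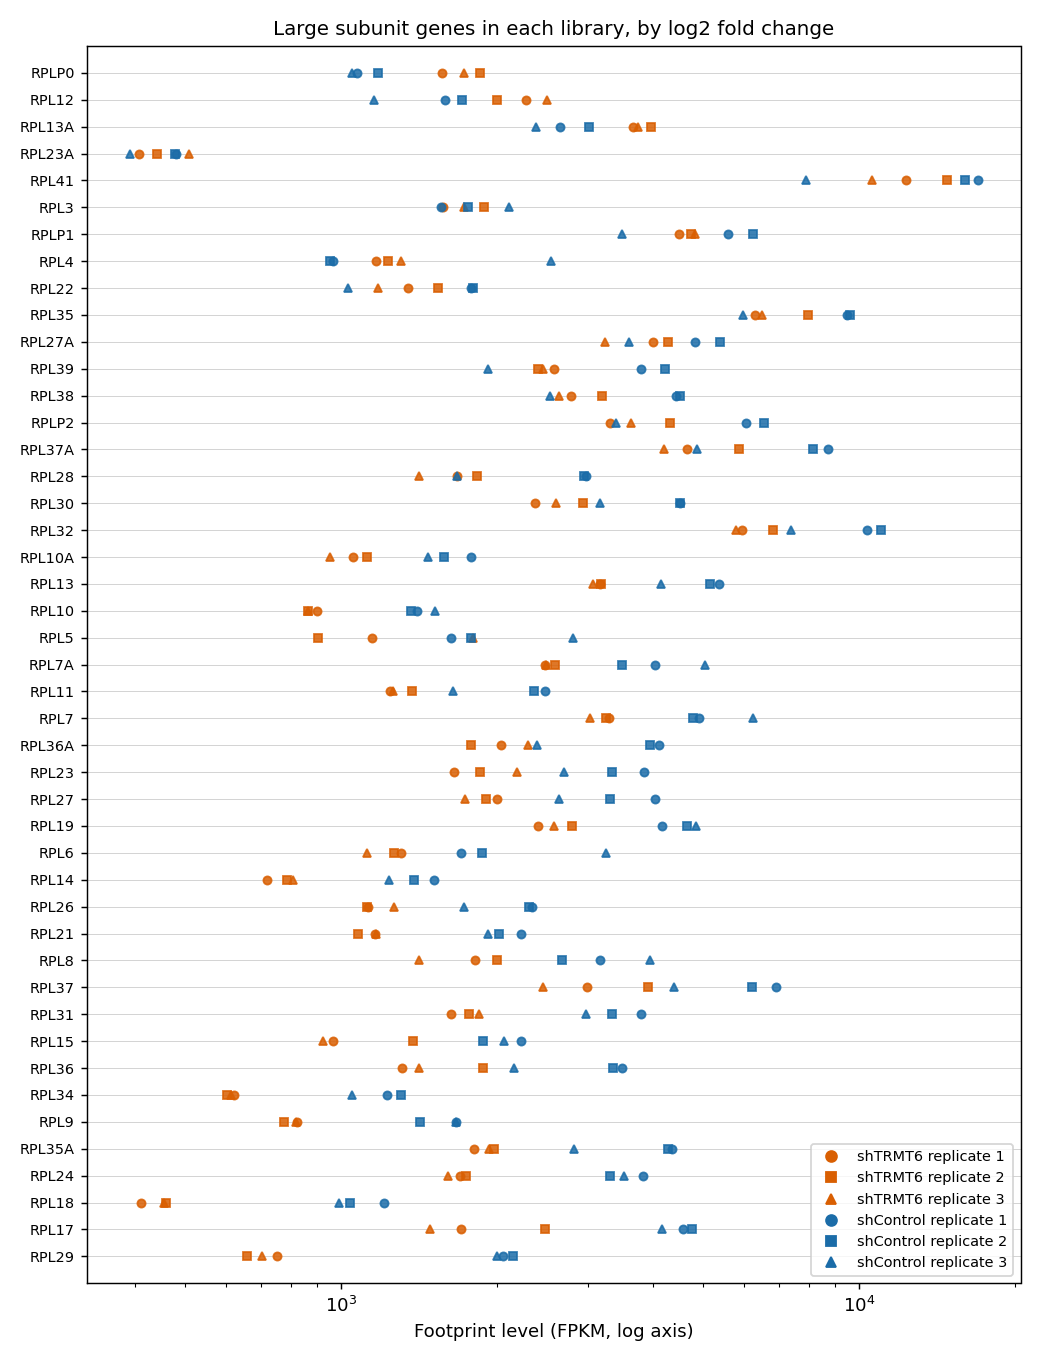
FPKM in each of the 6 libraries (log axis) for the 45 large subunit genes, ordered from the lowest log2 fold change at the bottom (RPL29, -1.55) to the highest at the top (RPLP0, 0.64). Orange points are shTRMT6 and blue points shControl libraries; the groups are apart with shTRMT6 lower for 28 genes and with shTRMT6 higher for RPLP0, RPL12 and RPL13A.

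As a share of all FPKM, the 45 genes held 6.69%, 7.43% and 6.71% in shTRMT6 libraries, against 9.77%, 9.74% and 9.02% in shControl libraries. The groups did not overlap, and the means were 6.94% ± 0.422 in shTRMT6 and 9.51% ± 0.426 in shControl (SD, n = 3 each). Other large classes in the sum also moved with the groups. The 13 mitochondrially encoded genes held 11.6% ± 3.32 in shTRMT6 and 1.33% ± 0.630 in shControl, and 67 replication-dependent histone genes held 1.46% ± 0.307 in shTRMT6 and 5.60% ± 0.525 in shControl. With the mitochondrial genes out of the sum, the large subunit held 7.85% ± 0.180 in shTRMT6 and 9.64% ± 0.477 in shControl. With the histone genes out as well it held 7.98% ± 0.206 in shTRMT6 and 10.2% ± 0.546 in shControl. In neither case did the groups overlap. The median member had 1771 ± 95.8 FPKM in shTRMT6 and 3112 ± 499 FPKM in shControl.

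The small subunit moved alongside. The 33 small subunit genes held 4.08% ± 0.273 in shTRMT6 and 5.94% ± 0.0729 in shControl, and 17 of the 33 were called lower, the median log2 fold change being -0.65. Over all tested genes 9.04% were called lower. The ratio of summed FPKM of large to small subunit genes was 1.69, 1.69 and 1.72 in shTRMT6, against 1.63, 1.63 and 1.54 in shControl. The groups were apart by a small margin. RPL41 carried much of that: it made up 11.6% ± 1.16 of the large subunit sum in shTRMT6 and 8.45% ± 2.13 in shControl. Without RPL41 and RPL39, the members with the shortest coding sequences, the ratio was 1.47 ± 0.0330 in shTRMT6 and 1.43 ± 0.00587 in shControl. On the median of log2 values the large subunit stood lower against the small subunit in shTRMT6 than in shControl (difference -0.24), the opposite direction, so no order between the subunits was drawn.

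**Figure D2:**
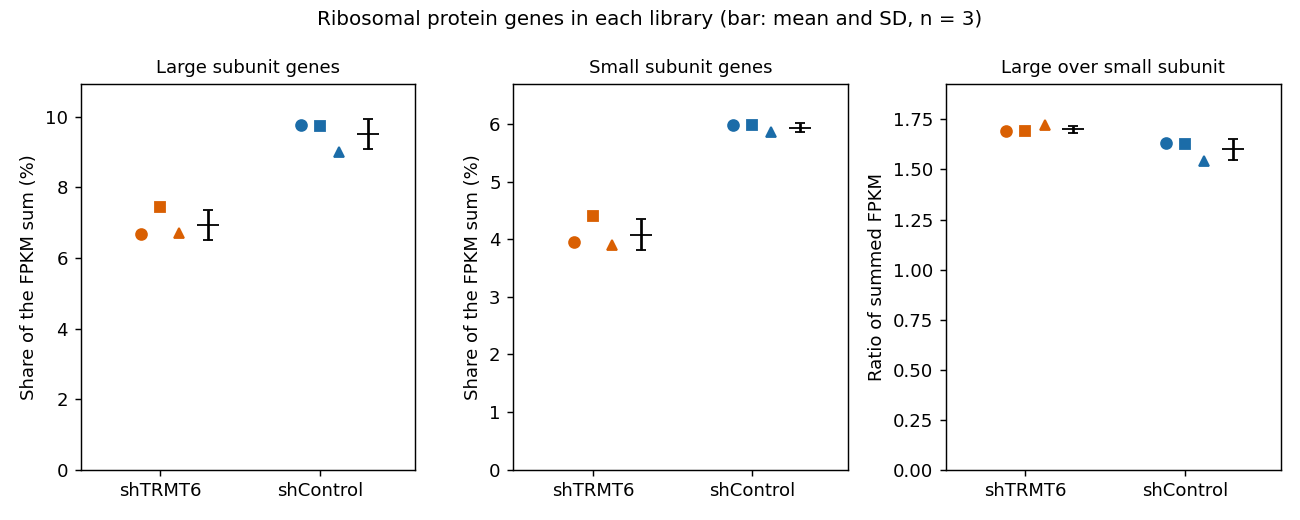
Share of the FPKM sum held by 45 large and 33 small subunit genes, and the ratio of the summed FPKM, per library (points; circle, square and triangle are replicates 1, 2 and 3) with mean and SD (bars, n = 3). shTRMT6 libraries lie below shControl for both shares (6.94% against 9.51% and 4.08% against 5.94%) and slightly above for the ratio (1.70 in shTRMT6 against 1.60 in shControl).

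Of the 5 stalk genes, RPLP0 rose, RPL10A fell and RPLP1, RPLP2 and RPL12 did not pass. Beside this and the next counts by place, 26 of all 45 members fell and 1 rose. Over all tested genes 9.04% fell and 26.5% rose. Differences between places were not tested. The P stalk, which recruits and activates the elongation factors, is a flexible arm of RPLP1 and RPLP2 pairs held by RPLP0, with RPL12 at its base. RPLP0 (ENSG00000089157, GRCh38 chromosome 12, 120196686 to 120201235, minus strand) had 1567, 1851 and 1726 FPKM in shTRMT6, against 1071, 1178 and 1051 FPKM in shControl. All shTRMT6 libraries were higher, by a fold of 1.56 on the means (log2 fold change 0.64, SE 0.19, limma adjusted p = 0.0267). It was the only member called higher, and its adjusted p ranged from 0.0107 to 0.0919 when 1 library was left out. With median scaling its log2 fold change was 0.14 (adjusted p = 0.608), and over all alternatives 0.14 to 1.16.

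RPL12 (ENSG00000197958, chromosome 9, 127447674 to 127451405, minus strand), the stalk's base, had 2277, 2004 and 2494 FPKM in shTRMT6, against 1587, 1713 and 1159 FPKM in shControl. The groups did not overlap, but the change missed the threshold (log2 fold change 0.62, SE 0.22, limma adjusted p = 0.0537). It passed without shControl replicate 3 (0.45, adjusted p = 0.0369). RPLP1, whose pairs with RPLP2 form the arm, had 4505, 4742 and 4819 FPKM in shTRMT6, against 5583, 6245 and 3489 FPKM in shControl, with a log2 fold change of -0.08 (adjusted p = 0.824). RPLP2 had 3312, 4327 and 3624 FPKM in shTRMT6, against 6061, 6549.85 and 3396 FPKM in shControl, with a log2 fold change of -0.46 (adjusted p = 0.222). For both, shControl replicate 3 was the low control, within or below the range of shTRMT6. Without it RPLP2 passed as lower (log2 fold change -0.76, adjusted p = 0.00722), and RPLP1 did not (-0.33, adjusted p = 0.0636).

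The L1 stalk on the other side of the subunit, which releases spent tRNA from the exit site, is built on RPL10A. RPL10A fell, with 1053, 1119.9 and 951 FPKM in shTRMT6, against 1784, 1579.9 and 1473 FPKM in shControl (log2 fold change -0.63, SE 0.19, limma adjusted p = 0.0307). Its limma adjusted p was 0.00717 without shControl replicate 3 and 0.0634 to 0.123 with any other library left out. With quantile normalization its log2 fold change was 0.00116 (adjusted p = 0.997). Its groups did not overlap. The median log2 fold change of the 5 stalk genes was -0.08, beside -0.72 for all members. That stalk median is the value of RPLP1, which was -0.33 without shControl replicate 3. In FPKM, a level per length, RPLP1 and RPLP2 lay above RPLP0 in every library.

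RPL13A was the other member with all shTRMT6 libraries higher. RPL13A (ENSG00000142541, chromosome 19, 49487554 to 49492308, plus strand) is a surface protein of the large subunit that in human monocytes can also leave the ribosome to silence inflammatory mRNAs. It had 3657, 3973 and 3745 FPKM in shTRMT6, against 2645, 3018 and 2380.3 FPKM in shControl (log2 fold change 0.51, SE 0.20, limma adjusted p = 0.0710). The groups were apart and the threshold was missed, and it was passed without shControl replicate 3 (0.42, adjusted p = 0.0316). With median scaling its log2 fold change was 0.01. As a share of the large subunit sum it had 3.50% ± 0.13 in shTRMT6 and 1.71% ± 0.15 in shControl (SD, n = 3 each).

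The 5S particle, RPL5 and RPL11 with 5S ribosomal RNA, docks on the top of the subunit and, when unassembled, binds MDM2 and stabilizes p53. RPL11 fell, with 1245, 1372 and 1261 FPKM in shTRMT6, against 2482, 2359 and 1645 FPKM in shControl (log2 fold change -0.72, SE 0.22, limma adjusted p = 0.0298). Its limma adjusted p was 0.00222 without shControl replicate 3 and 0.0674 to 0.113 with any other library left out. RPL5 had 1149, 901 and 1799 FPKM in shTRMT6, against 1628, 1781 and 2799.5 FPKM in shControl. Its log2 fold change was nearly that of RPL11, -0.71, but replicate 3 was the highest library of each group, the groups overlapped and the change missed the threshold (SE 0.30, adjusted p = 0.0958).

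Around the peptidyl transferase centre and the tRNA sites 3 of 4 members fell, against 26 of all 45 members and 9.04% of all tested genes. RPL8, which reaches toward the centre, had 1743 ± 298 FPKM in shTRMT6 and 3260.07 ± 647 FPKM in shControl (log2 fold change -0.90, limma adjusted p = 0.0155). RPL10, which touches the tRNA in the peptidyl site, had 874 ± 20.0 FPKM in shTRMT6 and 1427 ± 79.0 FPKM in shControl (-0.71, adjusted p = 0.0159). RPL36A, at the tRNA exit site, had 2038 ± 257 FPKM in shTRMT6 and 3489 ± 950.3 FPKM in shControl (-0.74, adjusted p = 0.0456). The limma adjusted p of RPL36A was 0.00263 without shControl replicate 3 and 0.0821 to 0.152 with any other library left out. RPL3, whose loop lies beside the centre, had 1730.07 ± 158 FPKM in shTRMT6 and 1810.4 ± 282 FPKM in shControl, a log2 fold change of -0.06 with overlapping groups (adjusted p = 0.844). Its sign turned under other scalings.

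Along the exit tunnel and at its rim 4 of 8 members fell, RPL17, RPL19, RPL26 and RPL31. Of all 45 members 26 fell, and of all tested genes 9.04%. RPL17, whose loop narrows the tunnel, had 1703, 2474 and 1486 FPKM in shTRMT6, against 4569, 4772 and 4165 FPKM in shControl (log2 fold change -1.29, SE 0.24, limma adjusted p = 0.00400). The groups were far apart, with shTRMT6 replicate 2 the highest of its group. RPL19 and RPL26, at the rim, had log2 fold changes of -0.82 and -0.84 (adjusted p = 0.0112 and 0.0124). A readthrough gene that shares its exons, RPL17-C18orf32, had 146 ± 49.0 FPKM in shTRMT6 and 147 ± 99.6 FPKM in shControl, and how the authors divided reads between them is not given in the sources used here. RPL31, at the rim, had 1634, 1769.7 and 1843 FPKM in shTRMT6, against 3796, 3333 and 2975 FPKM in shControl (-0.94, SE 0.20, adjusted p = 0.00685). These groups did not overlap.

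RPL35 and RPL23A flank the tunnel mouth, where the signal recognition particle docks. RPL35 was among the 3 members of highest level, with 6307, 7996 and 6499 FPKM in shTRMT6, against 9511, 9638 and 5979.6 FPKM in shControl (log2 fold change -0.25, limma adjusted p = 0.465). RPL23A had the lowest control level of all members, with 406, 441 and 509 FPKM in shTRMT6, against 479.7, 478 and 391 FPKM in shControl (0.01, adjusted p = 0.976). For both the groups overlapped. RPL39, a small protein inside the tunnel wall, had 2478 ± 92.9 FPKM in shTRMT6 and 3316 ± 1224 FPKM in shControl (-0.34, adjusted p = 0.388).

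RPL4, the other tunnel protein and the longest member with 427 codons, varied most within a group. It had 1169, 1231 and 1307 FPKM in shTRMT6, against 964, 954 and 2546 FPKM in shControl (log2 fold change -0.11, SE 0.35, limma adjusted p = 0.835). shControl replicate 3 alone lay above all shTRMT6 libraries, and the other controls lay below them. Without that library the log2 fold change was 0.36 (adjusted p = 0.0494), so the direction of RPL4 rests on 1 library.

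At the face that meets the small subunit, RPL24 and RPL23 (-0.79, limma adjusted p = 0.0210) fell, and RPL30 and RPL41 did not pass. RPL24, which forms a bridge to the small subunit, had 1696, 1742 and 1608 FPKM in shTRMT6, against 3835, 3312 and 3515 FPKM in shControl (log2 fold change -1.08, SE 0.19, limma adjusted p = 0.00341). No library of one group came near the other. RPL30 had 2636 ± 284 FPKM in shTRMT6 and 4060.1 ± 779.7 FPKM in shControl, with groups apart (-0.61, adjusted p = 0.0577), and it passed as lower without shControl replicate 3 (-0.78, adjusted p = 0.00474). RPL41, a bridge peptide of 25 codons and the member of highest level, had 12353, 14797 and 10589 FPKM in shTRMT6, against 17006, 16024 and 7926 FPKM in shControl (-0.05, SE 0.31, adjusted p = 0.911). Its controls lay on both sides of the shTRMT6 libraries. Without shControl replicate 3 its log2 fold change was -0.41 (adjusted p = 0.0816), and with the trends by level and length removed it was called lower (-0.79, adjusted p = 0.00190). A coding sequence this short makes its FPKM depend on the length the authors divided by.

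The other 22 members are those not put in the classes above. Of these 15 fell, against 26 of all 45 members and 9.04% of all tested genes. RPL29, a small basic protein found in eukaryotes only, had the largest decrease of all 45. RPL29 (ENSG00000162244, chromosome 3, 51993522 to 51995942, minus strand) had 753, 658 and 703 FPKM in shTRMT6, against 2056, 2149 and 2002 FPKM in shControl (log2 fold change -1.55, SE 0.19, limma adjusted p = 0.000879). The shTRMT6 mean was 0.341 of the control mean, and replicates within a group lay close together. RPL18, a gene mutated in some families with Diamond-Blackfan anemia, had 411, 459 and 454 FPKM in shTRMT6, against 1212, 1038 and 990.06 FPKM in shControl (-1.29, SE 0.19, adjusted p = 0.00185). Again no library of one group approached the other.

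RPL9, near the base of the P stalk, had 823, 775 and 819.7 FPKM in shTRMT6, against 1666, 1419 and 1667 FPKM in shControl (log2 fold change -0.97, SE 0.19, limma adjusted p = 0.00503). RPL34 had 621, 602 and 614 FPKM in shTRMT6, against 1229, 1303 and 1050.09 FPKM in shControl (-0.96, SE 0.19, adjusted p = 0.00554). RPL21 had 1164, 1079.7 and 1166.5 FPKM in shTRMT6, against 2229, 2020.2 and 1923 FPKM in shControl (-0.85, SE 0.19, adjusted p = 0.00812). In these 3 genes the shTRMT6 libraries agreed within narrow ranges and all lay below every control.

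Among the rest of this class, RPL35A, RPL36, RPL15, RPL37, RPL14, RPL6 and RPL27 had log2 fold changes of -0.80 to -0.98, and RPL7, RPL7A and RPL13 of -0.63 to -0.73, all past the threshold. RPL32, a member of high level, had 5959, 6823 and 5801 FPKM in shTRMT6, against 10393, 11032 and 7395 FPKM in shControl. Its groups were apart, and its change missed the threshold (-0.62, SE 0.23, limma adjusted p = 0.0613). RPL28, RPL37A, RPL38 and RPL27A had negative values of -0.59, -0.53, -0.37 and -0.25 with overlapping groups, none past the threshold with all libraries. Without shControl replicate 3, RPL32 (-0.79, adjusted p = 0.00400), RPL28 (-0.86, 0.00434), RPL37A (-0.80, 0.00859) and RPL38 (-0.65, 0.00847) passed as lower, and RPL27A (-0.42, 0.0651) did not.

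RPL22, which is dispensable for the ribosome in mice and whose loss there raises its paralog RPL22L1, had 1346, 1541 and 1181 FPKM in shTRMT6, against 1784, 1800.0 and 1029 FPKM in shControl. The groups overlapped (log2 fold change -0.14, SE 0.26, limma adjusted p = 0.689). RPL22L1 had 1675, 1589 and 1481 FPKM in shTRMT6, against 2722, 2466 and 1509 FPKM in shControl (-0.45, adjusted p = 0.183). Among the other paralogs, RPL36AL had 659, 722 and 605 FPKM in shTRMT6, against 2021, 2022 and 1899.8 FPKM in shControl, and fell (-1.58, adjusted p = 0.000875). RPL26L1 also fell, with 95.6 ± 8.17 FPKM in shTRMT6 and 241 ± 34.2 FPKM in shControl (-1.32, adjusted p = 0.00235). RPL7L1 missed the threshold (-0.58, adjusted p = 0.0538), and RPL39L, RPL3L and RPL10L, which are known from testis or muscle, were listed at 0 in all 6 libraries.

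**Figure D3:**
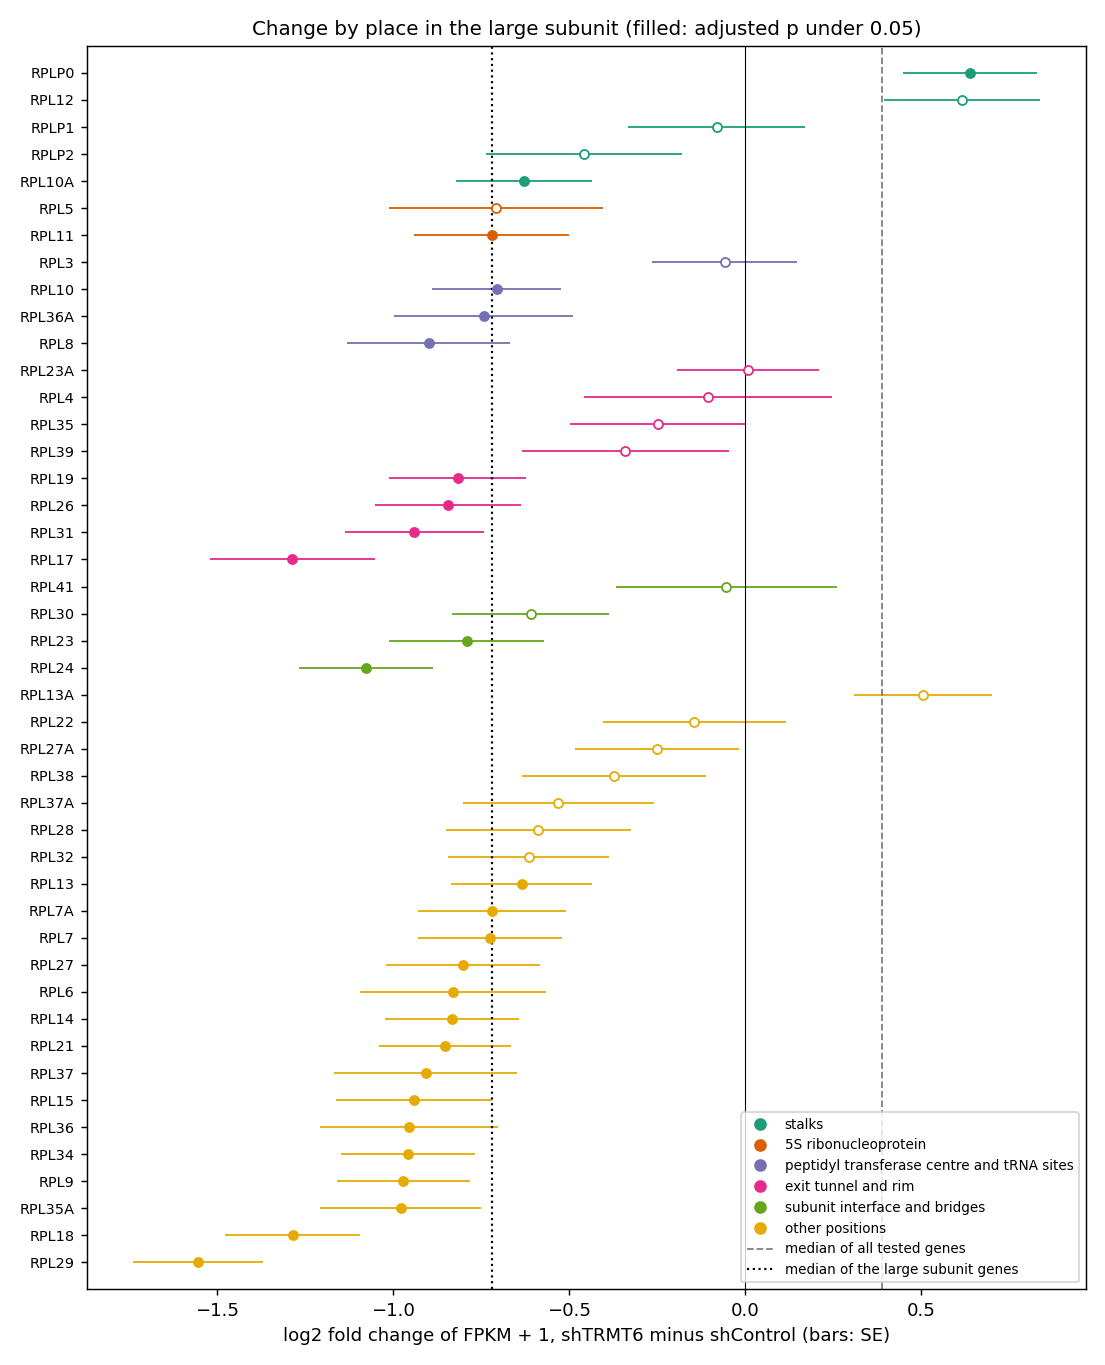
Log2 fold change of FPKM + 1 (shTRMT6 minus shControl, bars SE) of each member, grouped by its place in the subunit; filled points passed limma's adjusted p of 0.05. The stalk genes at the top spread from -0.63 to 0.64. Genes of the exit tunnel and rim spread from -1.29 to 0.01, and those of other positions from -1.55 to 0.51. Lines mark the members' median of -0.72 (dotted) and the median of all tested genes at 0.39 (dashed).

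By evolutionary reach, 9 of the 18 members found in bacteria, archaea and eukaryotes fell and 1 rose (median log2 fold change -0.67). Of the 27 other members 17 fell, with a median of -0.80. Over all tested genes, for these and the next counts, 9.04% fell and 26.5% rose. RPLP0, RPL12 and RPL13A are all in the first class. Of the 9 members in which mutations cause Diamond-Blackfan anemia, a failure of red cell production, 7 fell and RPL5 and RPL35 did not pass, with a median of -0.84. Among the members, 18 hold a small nucleolar RNA gene between their ends on the same strand, a list drawn after values were seen. Of these 7 fell, with a median of -0.61. Of the 27 without one 19 fell and RPLP0 rose, with a median of -0.82. Of 181 other tested genes with one 26 fell and 46 rose. Their median was 0.34, near the 0.39 of all tested genes.

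The members were also compared with one another, with the change of their own median set aside. Each library was divided by the median of its 45 members, an alternative added after the data were seen, and the whole table was tested again. On this scale the median log2 fold change was 0.08 over the members and 1.19 over all tested genes. At an adjusted p under 0.05, 11 members stood above and 3 below, where 64.9% and 1.50% of all genes did. The scale is set by the members' own values, so these calls only describe how the members lie to one another. Above were RPL3, RPL12, RPL13A, RPL22, RPL23A, RPL27A, RPL35, RPL38, RPL41, RPLP0 and RPLP1, and below were RPL17, RPL18 and RPL29. RPLP0, RPL12 and RPL13A stood furthest above, by 1.44, 1.42 and 1.31 on the log2 scale (limma adjusted p = 0.000340, 0.000351 and 0.000340). RPL29 stood furthest below, by -0.75 (adjusted p = 0.00491). RPL12, RPL13A, RPL22, RPL23A, RPL35, RPL41, RPLP0 and RPLP1 were above, and RPL29 below, in all 7 fits, with all libraries and with each left out. Without shTRMT6 replicate 1 or shControl replicate 1 RPL29 was the only member below.

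shControl replicate 3 differed from the other controls by coding length. Over the 45 members the log2 ratio of its FPKM to the mean of shControl replicates 1 and 2 correlated with log2 coding length at r = 0.83 (Spearman 0.88), a description over genes of the same 3 libraries. Over 11410 tested genes r was 0.27. The 22 members under the median coding length of 471 nt all had their lowest control value in replicate 3, with a median log2 ratio of -0.64. Of the 23 longer members 11 had it lowest and 10 highest there, with a median of -0.02. RPL41 and RPL39 stood at -1.06 each, and RPL4 at 1.41. For short members such as RPL41, RPL39, RPLP1, RPLP2 and RPL22 this library lay inside or below the shTRMT6 range. Without it RPL39 and RPL35 passed as lower (log2 fold changes -0.69 and -0.47, adjusted p = 0.00514 and 0.0341), and RPL41, RPL22 and RPLP1 did not.

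**Figure D4:**
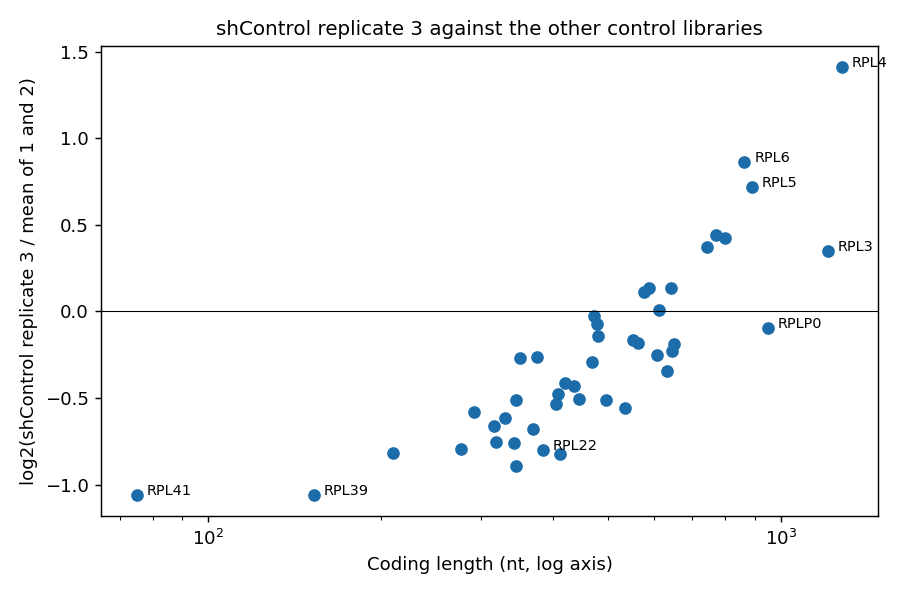
Log2 ratio of FPKM in shControl replicate 3 to the mean of shControl replicates 1 and 2 for each of the 45 members, against coding length (nt, log axis). Short members such as RPL41 and RPL39 lie at -1.06 and the longest, RPL4, at 1.41.

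With all libraries the change between the groups showed little relation to length within the members, and this rests on shControl replicate 3. Their log2 fold change correlated with log2 coding length at r = -0.00 (Spearman -0.01) over 45 genes, while over 11410 tested genes r was 0.33. Without shControl replicate 3 r was 0.29 over the members and 0.41 over the tested genes. It was at r = 0.21 with GC at the third codon position, -0.11 with the share of lysine and arginine codons and -0.08 with the control level, all descriptions. The 22 members under the median length had a median log2 fold change of -0.60 and the 23 others of -0.73, and without shControl replicate 3 the order turned, with -0.79 and -0.75. Genes that resemble the members in level and length also lay below the table's median. The 470 other tested genes at or above the lowest member level and no longer than the longest member had a median of -0.47, less than the members' -0.72, and the 919 others shorter than the median member had -0.09.

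**Figure D5:**
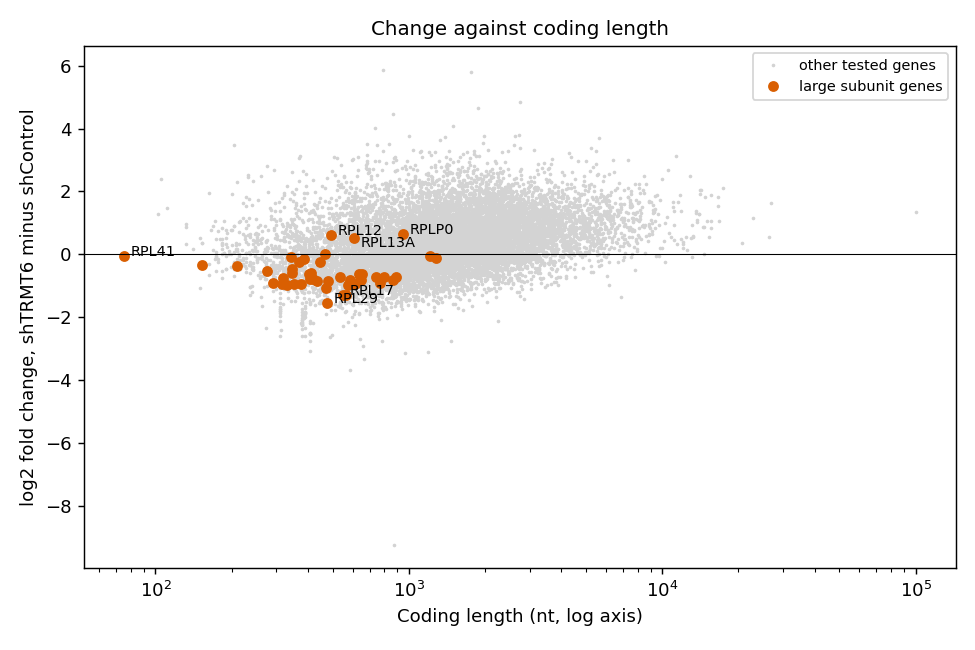
Log2 fold change (shTRMT6 minus shControl) against coding length (nt, log axis) for the large subunit genes (orange) and the other tested genes (grey). The members spread from -1.55 (RPL29) to 0.64 (RPLP0) with r = -0.00 against log2 length (0.29 without shControl replicate 3), while the other genes tend upward with length.

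Genes that work with the large subunit did not move as 1 block. Of 30 assembly and export factors of the large subunit 7 fell and 5 rose (median log2 fold change 0.31). Over all tested genes 9.04% fell and 26.5% rose, with a median of 0.39. EIF6, which keeps new large subunits from joining the small subunit, fell (-0.77, limma adjusted p = 0.0296), as did EBNA1BP2 (-1.04, adjusted p = 0.00374) and MRTO4, the placeholder for RPLP0 on precursors (-0.71, adjusted p = 0.0205). MRTO4 and RPLP0 thus moved in opposite directions. The others that fell were AAMP, TMA16, PA2G4 and NOP16 (-1.36, -1.25, -1.07 and -0.95, limma adjusted p = 0.00251, 0.00401, 0.0371 and 0.00673). NVL, PPAN, NOP2, NOC3L and MDN1 rose, by 1.46, 1.36, 1.36, 1.19 and 1.05 on the log2 scale (adjusted p = 0.00680, 0.00891, 0.0268, 0.0261 and 0.0441). Of 16 other mRNAs known for TOP starts EEF1B2 and EIF3F fell and EIF4B and PABPC1 rose, with a median of -0.48. The same shares of 9.04% and 26.5% stand beside these counts. PABPC1, the poly(A) binding protein, had 1755 ± 240.2 FPKM in shTRMT6 and 447 ± 147 FPKM in shControl (2.02, adjusted p = 0.00142).

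Outside the members, the 5 tested genes whose 6 values followed the mean log2 level of the members most closely were PPP1CA (r = 0.999), MYL6 (0.999), H4C4 (0.998), POLR2H (0.997) and LGALS1 (0.997), over 6 libraries that fall into 2 groups. MYL6, the highest of them, had 2446, 2836 and 2424 FPKM in shTRMT6, against 5863, 5600.1 and 4036 FPKM in shControl. All shTRMT6 libraries were below all controls there, as in 28 of the members and 14.3% of all tested genes. MYL6 was picked for following the members over these same libraries, so its pattern adds no support.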

How the data were processed

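Ribosome footprints were sequenced from 3 shTRMT6 and 3 shControl libraries of RKO cells. Per the labels' protocols, RNase I digestion left ribosome-protected fragments, which were purified and made into small RNA libraries. The values used are the FPKM per gene that the authors deposited, per the file headers. RSEM, STAR and fastp appear in the submitters' processing notes. The genome build is not given in the sources used here, nor are tool versions, the annotation, the use of strand and the handling of near-identical sequences such as processed pseudogenes of ribosomal protein genes. FPKM is relative to the library, and no matched RNA-seq was used.

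Groups came from the sample titles, and 0 value columns were left unassigned. Symbols were matched for 20257 of 20289 identifiers. Positions and coding lengths came from GENCODE 29 (GRCh38, 20171 identifiers), and mRNA starts from RefSeq (GRCh38.p14), which held 38 of the 45 members. limma 3.58.1 in R 4.3.3 was fitted across all genes on log2(FPKM + 1) with group as the term. The eBayes step used an intensity trend. A gene was tested if 3 or more libraries had at least 1 FPKM, which left 11566. The threshold was a Benjamini-Hochberg adjusted p under 0.05 over all of these. Folds on this scale understate the change of low genes. The fit was tested on simulated data. A member that did not pass is not shown to be unchanged, at 3 libraries a group. Reads per library were estimated from the steps of low values, 77.5% to 79.4% of which came within 0.1 of a whole number, with 36 nt added to the coding length; these totals are estimates and no count model was fitted. Shares and ratios have no test. Libraries are described without batches, since the labels give none.

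The members and lists were chosen with earlier results of these data known. Values per library are given for members called higher, the 8 lower with the smallest p, the stalk and 5S genes, RPL22, the 3 highest and 3 lowest control levels and the member with the largest spread within a group. Alternatives were median scaling, quantile normalization, shares of the sum, removal of trends with level and coding length (splines of 5 degrees of freedom), other filters, a pseudocount of 0.1, no intensity trend, the replicate number as a block and leaving out each library. Python 3.11.15, pandas 2.3.3, numpy 2.4.6, scipy 1.17.1 and matplotlib 3.10.9 were used.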

Additional observations from a re-analysis of the deposited data

How the results depend on the processing

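The main values were a median log2 fold change of -0.72, 26 members lower, 1 higher, a log2 ratio of the large subunit share of -0.45 and of the large to small subunit ratio of 0.09. The median log2 fold change was -1.21 with median scaling, -0.25 with quantile normalization and -0.18 with trends removed. The count lower was 7 with quantile normalization, 10 with trends removed and 8 to 34 with 1 library left out. The count higher was 0 with median scaling or no intensity trend, 2 with a mean of at least 5 FPKM, 3 with quantile normalization or either share of the sum, 6 with trends removed and 0 to 4 with 1 library left out. The share's log2 ratio was -0.30 without mitochondrial genes in the sum and -0.36 without histone genes as well. The median log2 level of the members, which is not divided by the sum, differed by -0.80. The log2 value of the large to small ratio was 0.03 without RPL41 and RPL39 and -0.24 on the median of log2 values. Members called below on the scale of the members' own median numbered 3, and 1 to 3 with 1 library left out.

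Single genes turned sign as follows. With quantile normalization RPL3 had 0.52, RPL4 0.41, RPL10A 0.00116, RPL22 0.45, RPL27A 0.17, RPL28 0.012, RPL38 0.12, RPL39 0.18 and RPLP1 0.32. With trends removed RPL3 had 0.28, RPL4 0.17, RPL22 0.36, RPL27A 0.36, RPL35 0.31, RPLP1 0.44 and RPLP2 0.0635. As a share of the sum RPL3 had 0.0211 and RPL41 0.0265, and without mitochondrial and histone genes RPL3 0.12, RPL4 0.0716, RPL22 0.0333, RPL41 0.12 and RPLP1 0.097. With median scaling RPL23A had -0.49. With 1 library left out RPL3 ranged from -0.16 to 0.0596, RPL4 from -0.34 to 0.36, RPL23A from -0.0884 to 0.0827, RPL41 from -0.41 to 0.15 and RPLP1 from -0.33 to 0.0867. The cause of these changes was not tested beyond the scaling itself. Other single-gene results lost the threshold in 117 cases and passed it newly in 37.

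Libraries of the same replicate number shared little deviation from their group means (correlations 0.0120, 0.0134 and 0.102). The labels do not say what a number marks, so whether the libraries are paired is not known. The fit with the replicate number as a block called 27 members lower and 1 higher, against 9.21% and 27.2% of all tested genes. RPL5 was the member called lower under the block and not without it (adjusted p = 0.0275). The effects of reads shared with pseudogenes or paralogs, of the length the authors divided by and of depth on the fold changes were not tested.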
